A study of Homo sapiens with 6 samples.

Results

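The G1/S regulators described here are 34 genes that decide whether a cell leaves G1 and starts to copy its DNA. They are the E2F transcription factors, their dimer partners, the RB family, subunits of the DREAM complex, the G1 cyclins and cyclin-dependent kinases (CDKs), the inhibitors of these kinases, and *MYC*. They were chosen by symbol, with earlier results of these data known, and found through their NCBI Gene numbers. All 34 were among the 29806 gene numbers of the count table. The comparison is between LNCaP parental cells, an androgen-responsive human prostate cancer line labelled wild type, and LNCaP cells in which PACT, the double-stranded RNA binding protein encoded by *PRKRA*, was knocked out with CRISPR-Cas9 (PACT KO). RNA was taken from 3 dishes of each, 48 h after plating in RPMI-1640 with 10% serum, and neither group received any other treatment. The PACT KO dishes all came from 1 selected clone, so the spread between replicates is that of dishes, and differences between clones cannot be told apart from the loss of PACT.

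In G1 the cyclin D proteins, with CDK4 or CDK6, begin to phosphorylate the RB proteins, and cyclin E with CDK2 completes the step. RB proteins that are not phosphorylated hold E2F factors in check. Once released, E2F1, E2F2 and E2F3 switch on the genes of DNA replication, among them several of the regulators themselves. E2F4 and E2F5 act mainly as repressors with RBL1 and RBL2 in the DREAM complex, which silences cell cycle genes in resting cells, and E2F6, E2F7 and E2F8 repress without RB proteins. The core of DREAM, called MuvB, also joins B-Myb (*MYBL2*) to activate genes of late S phase and mitosis.

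Regulators on both sides of this switch fell in PACT KO cells, and 3 rose, namely the dimer partner *TFDP2* and the kinase inhibitors *CDKN1C* and *CDKN2A*. Of the 34 genes, 33 had enough reads to be tested, and 22 of them passed an FDR of 0.01 as lower and 3 as higher (edgeR, quasi-likelihood F-test, 2-sided, adjusted over all 14462 genes tested). Over all genes tested, 18.8% were lower and 15.3% higher. *MYBL2*, *E2F8* and *CCNA2* fell by at least 1.5-fold as well and *CDKN1C* rose by at least 1.5-fold, where 2.65% of all genes tested were lower and 3.07% higher to that extent. The other called changes were smaller. The PACT KO libraries lay below every LNCaP parental library in 24 regulators and above in 3, against 27.2% and 25.1% of all genes tested. The median log2 fold change of the 33 was -0.29, beside 0.00 over all genes tested.

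*CCND2*, the gene of cyclin D2, was the regulator not tested, with 0, 1 and 2 reads in the 3 parental dishes against 1, 0 and 0 in the 3 knockout dishes. The 8 tested genes that passed no threshold were *E2F3*, *E2F5*, *E2F6*, *RB1*, *RBL2*, *LIN9*, *CCNE1* and *CDK6*. Of these, *LIN9* (FDR = 0.0481 in edgeR) and *CDK6* (FDR = 0.0236 in edgeR) had separate groups, with every PACT KO library below every LNCaP parental library.

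**Figure D1:**
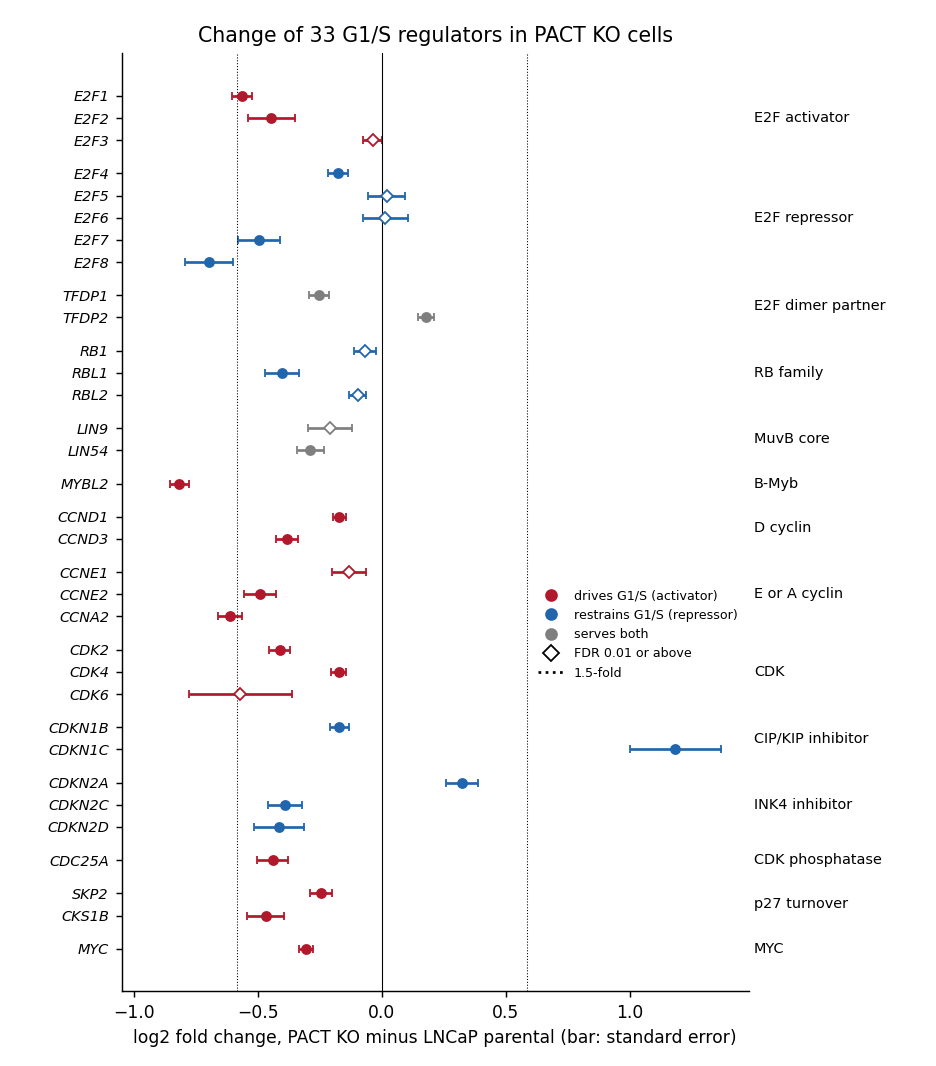
Log2 fold change of the 33 tested G1/S regulators (x axis, PACT KO minus LNCaP parental, bars give the SE), ordered by role and coloured by whether the gene drives G1/S, restrains it or serves complexes of both kinds. Filled circles passed an FDR of 0.01 in edgeR, open diamonds did not, and dotted lines mark 1.5-fold. *MYBL2* lies farthest to the left at -0.82 and *CDKN1C* farthest to the right at 1.18.

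The libraries held 19930060 to 24940838 reads on genes, so 3 reads in a library corresponded to 0.120 to 0.151 CPM. CPM are read counts scaled to a common library total, with the TMM factors of edgeR. *PRKRA* itself had 882, 809 and 866 reads in the 3 parental dishes against 291, 331 and 243 in the 3 knockout dishes, a log2 fold change of -1.57 (SE, the standard error, 0.07). Luminal prostate markers were expressed in all libraries, with *KRT8*, a luminal keratin, at 459 ± 12.5 CPM in the parental line against 433 ± 6.34 CPM in the knockout (SD, n = 3 each). Of the luminal markers given here, *KRT18* and *HOXB13* were lower (log2 fold changes of -0.10 and -0.09), *FOLH1* was higher (0.15), and *TMPRSS2*, *KRT8* and *EPCAM* were not called. Of the 4 basal markers, *KRT5* was at 0 in all 6 libraries, *KRT14* and *TP63* had mean levels of at most 0.103 and 0.0165 CPM in a group, and *ITGB4* rose from 9.69 to 13.1 CPM. Of the endothelial markers *PECAM1* and *CDH5* were at 0, while *VWF* fell from 25.4 to 16.6 CPM. Of the stromal markers *COL1A2* was at 0, *DCN* and *LUM* were at most at 0.126 CPM, *COL3A1* had 6.35 and 5.96 CPM and *COL1A1* rose by 0.52 on the log2 scale. The leukocyte marker *CD3E* was at 0, and *PTPRC* and *LYZ* were at most at 0.0878 CPM. A listed 0 need not mean that a gene was silent, since *EIF4A1*, a gene that all cells use, was also at 0 in every library. Whether the markers that moved bear on the regulators was not tested. These are bulk samples, in which fewer cells in a phase of the cycle and less RNA of a gene per cell cannot be told apart.

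The set of RefSeq promoters used here (GRCh38.p14) covered 26 of the 34 genes. Each promoter ran from 250 bases before to 50 bases after a transcription start. The set had no entry for *E2F5*, *E2F8*, *CCND1*, *CCND2*, *CCNE2*, *CDK2*, *CDKN1C* and *MYC*. This is a gap of the set, since RefSeq gives positions for these genes too. The letters of an E2F site, taken as TTTCCCGC, TTTGGCGC, TTTCGCGC or TTTGCCGC on either strand, stood in the promoters of *E2F1*, *E2F2*, *E2F3*, *TFDP1*, *RBL1* and *CDC25A*. These 6 are shown because they are the regulators whose own promoters hold the letters that E2F factors read, 48 to 61 bases each, 5′ to 3′ on the strand of the gene, with the E2F letters in capitals.
*E2F1*, chr20:33686378-33686438, minus strand: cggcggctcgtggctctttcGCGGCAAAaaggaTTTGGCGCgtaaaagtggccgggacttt
*E2F2*, chr1:23531248-23531295, minus strand: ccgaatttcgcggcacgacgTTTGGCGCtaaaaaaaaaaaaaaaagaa
*E2F3*, chr6:20401806-20401853, plus strand: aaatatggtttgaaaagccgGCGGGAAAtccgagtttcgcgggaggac
*TFDP1*, chr13:113584613-113584660, plus strand: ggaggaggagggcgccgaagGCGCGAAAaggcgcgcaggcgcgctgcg
*RBL1*, chr20:37095986-37096043, minus strand: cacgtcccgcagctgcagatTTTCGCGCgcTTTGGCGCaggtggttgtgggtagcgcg
*CDC25A*, chr3:48188434-48188481, minus strand: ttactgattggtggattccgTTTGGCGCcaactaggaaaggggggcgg

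The E2F letters lie within 53 bases before the start in all of these but *TFDP1*, where they lie 120 to 113 bases before it. Of the 39 listed starts of the regulators, 6 held the letters (15.4%), against 3.31% of all 35116 promoters of the same length. Counted by gene, 6 of 26 regulators held them (23.1%), against 6.59% of the 11195 tested genes with a listed promoter. All of these 6 but *E2F3* were lower in PACT KO cells, as were 17 of the 26 regulators with a listed promoter. Among the 738 tested genes with such a promoter, 27.2% were lower and 11.9% higher, and among the tested genes whose listed promoters lack the letters 19.3% were lower and 15.9% higher. The CHR, the element TTTGAA to which DREAM binds, was searched on both strands as well. It stood in the promoters of 6 regulators, *CKS1B*, *E2F3*, *LIN9*, *LIN54*, *RBL2* and *TFDP2*, which is 23.1% of the 26, against 13.1% of the tested genes with a listed promoter and 15.2% of all promoters. Of these 6, *CKS1B* and *LIN54* were lower, and over all tested genes 21.5% of those with the CHR and 19.6% of those without it were lower. The E-box CACGTG, read by MYC with its partner MAX, stood in those of *CDK4*, *CDK6*, *CDKN2C*, *E2F3* and *MYBL2*, which is 19.2% of the 26, against 12.6% of the tested genes with a listed promoter and 7.26% of all promoters. Of these 5, *CDK4*, *CDKN2C* and *MYBL2* were lower. Over all tested genes, 22.4% of those with the E-box and 19.5% of those without it were lower. A match of these letters is a description of the sequence, and binding was not measured.

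Among the activating E2F factors, *E2F1* and *E2F2* fell and *E2F3* was not called. *E2F1* (NCBI Gene number 1869, chr20:33675477-33686385) had 55.9, 57.3 and 58.0 CPM in the 3 parental dishes against 38.9, 38.1 and 38.9 CPM in the 3 knockout dishes. The groups did not overlap, and the spread within each was small beside the gap between them. Its log2 fold change was -0.56 (SE 0.04, FDR = 1.95e-14 in edgeR), so that it fell by 32.3%, just short of 1.5-fold. *E2F2* had 11.5, 10.5 and 12.3 CPM in the parental line against 7.93, 9.00 and 8.31 CPM in the knockout, a log2 fold change of -0.45 (SE 0.09). *E2F3* had 61.2, 62.7 and 59.6 CPM in the parental line against 59.0, 60.1 and 59.6 CPM in the knockout, and its libraries overlapped. Its log2 fold change was -0.04 (SE 0.04, FDR = 0.44 in edgeR). *E2F3* had 1.07 ± 0.0376 reads for each read of *E2F1* in the parental line against 1.54 ± 0.0314 in the knockout (SD, n = 3 each). Such a ratio within a library does not depend on how libraries are scaled.

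Of the 5 repressive E2F factors 3 fell. *E2F8* and *E2F7*, which are themselves known E2F targets and feed back on *E2F1*, both fell. *E2F8* (number 79733, chr11:19224063-19241655) had 11.8, 11.0 and 12.6 CPM in the parental line against 6.44, 7.89 and 7.52 CPM in the knockout, a log2 fold change of -0.70 (SE 0.10, FDR = 2.23e-07 in edgeR). *E2F7* had 14.3, 14.3 and 14.7 CPM in the parental line against 9.92, 10.2 and 10.7 CPM in the knockout, a log2 fold change of -0.50 (SE 0.09). In both genes every PACT KO library was below every LNCaP parental library. *E2F4*, the E2F factor of DREAM, fell by 11.6%, from 63.8 ± 1.20 to 56.5 ± 2.83 CPM (SD, n = 3 each), with a log2 fold change of -0.18 (SE 0.04). *E2F5* had 18.1 ± 0.972 and 18.3 ± 1.00 CPM and *E2F6*, a partner of Polycomb proteins, 10.5 ± 0.563 and 10.6 ± 0.379 CPM, and neither was called. *E2F5* overlaps a neighbouring gene and *E2F8* an antisense gene, and reads there could have been lost or shared in counting.

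The dimer partners of E2F moved in opposite directions. DP1 (*TFDP1*) and DP2 (*TFDP2*) each bind DNA together with an E2F factor, whether it activates or represses. *TFDP1* (number 7027, chr13:113584688-113641473) had 80.5, 76.6 and 77.6 CPM in the parental line against 60.9, 66.9 and 69.5 CPM in the knockout, a log2 fold change of -0.25 (SE 0.04, FDR = 1.81e-06 in edgeR). *TFDP2* (number 7029, chr3:141944428-142149544) had 97.7, 99.8 and 98.9 CPM in the parental line against 116, 108 and 110 CPM in the knockout, a log2 fold change of 0.18 (SE 0.03, FDR = 3.07e-05 in edgeR). In neither gene did the groups overlap, and PACT KO replicate 1 was the lowest for *TFDP1* and the highest for *TFDP2*. There were 1.26 ± 0.0455 reads of *TFDP2* for each read of *TFDP1* in the parental line against 1.70 ± 0.181 in the knockout (SD, n = 3 each).

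**Figure D2:**
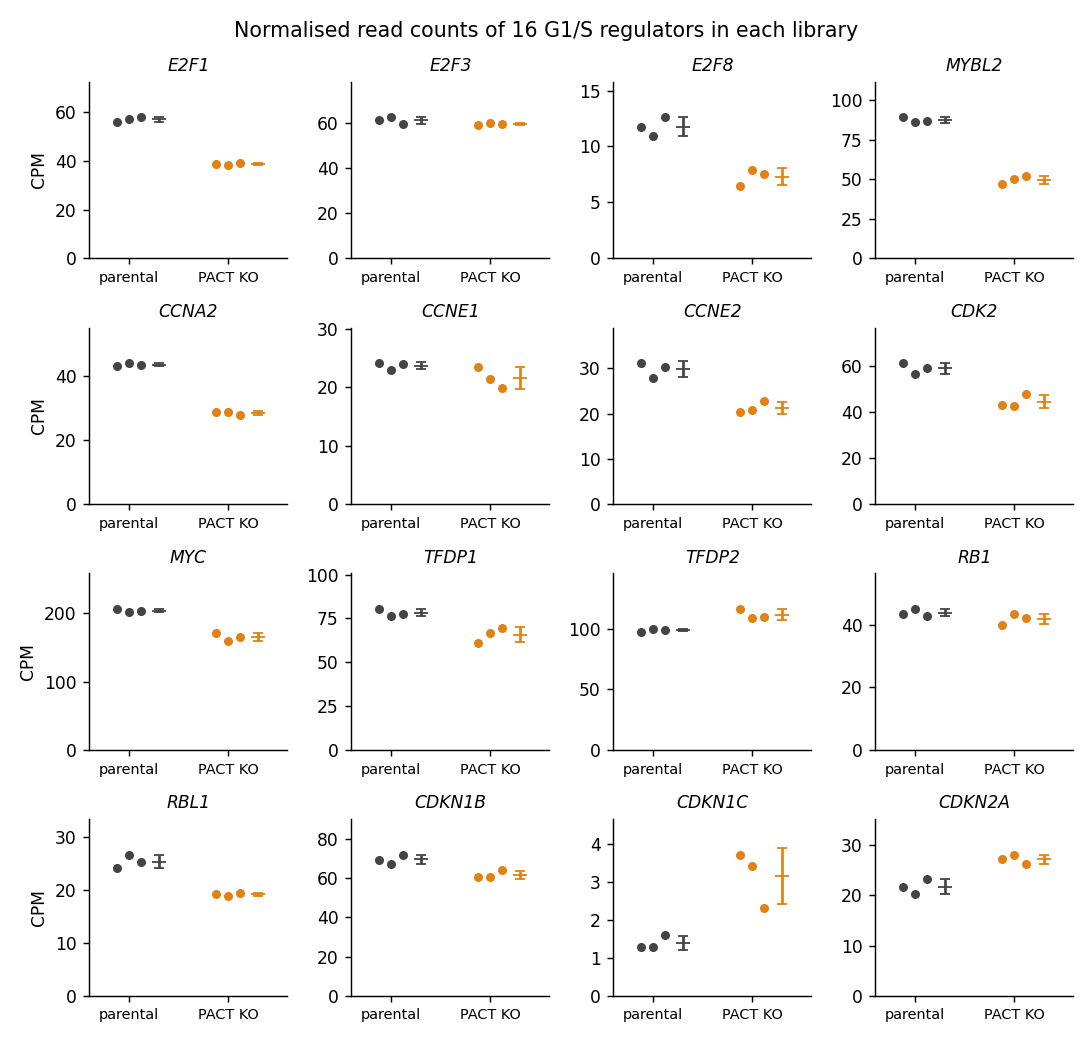
Normalised read counts (CPM, y axes from 0) of 16 G1/S regulators in each of the 3 LNCaP parental (grey) and 3 PACT KO (orange) libraries, with the mean and SD beside the points. The groups are separate for all but *E2F3*, *CCNE1* and *RB1*. *TFDP2*, *CDKN1C* and *CDKN2A* are higher in PACT KO cells and the other 10 separate genes are lower.

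Of the RB family, *RBL1* (p107) fell, whereas *RB1* and *RBL2* (p130) were not called. *RBL1*, itself a target of E2F, had 24.2, 26.7 and 25.2 CPM in the parental line against 19.2, 18.9 and 19.4 CPM in the knockout, a log2 fold change of -0.40 (SE 0.07, FDR = 4.42e-06 in edgeR). *RB1* (number 5925, chr13:48303751-48481890), the retinoblastoma gene, had 43.5, 45.0 and 42.8 CPM in the parental line against 39.9, 43.2 and 42.0 CPM in the knockout. Its groups overlapped, and its log2 fold change was -0.07 (SE 0.04, FDR = 0.199 in edgeR). *RBL2*, the RB protein of resting cells, had 108 ± 4.68 and 101 ± 3.37 CPM (n = 3 each, SD), which is a log2 fold change of -0.10 (SE 0.03, FDR = 0.0203 in edgeR). Without LNCaP parental replicate 2 its FDR was 0.00413 and without PACT KO replicate 1 it was 0.00777 (edgeR), so its place below or above the threshold depends on single dishes. There were 1.73 ± 0.0618 reads of *RB1* for each read of *RBL1* in the parental line against 2.17 ± 0.104 in the knockout, and for *RBL2* 4.27 ± 0.389 and 5.26 ± 0.204.

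The steepest fall among the regulators was that of *MYBL2*, whose product B-Myb takes the place of the repressors on the MuvB core when cells enter the cycle. *MYBL2* (number 4605, chr20:43667114-43716482) had 89.4, 86.2 and 86.6 CPM in the parental line against 46.9, 50.1 and 52.2 CPM in the knockout. Its log2 fold change was -0.82 (SE 0.04, FDR = 1.05e-19 in edgeR), so that it fell by 43.2% and ranked 268 from the lowest of the 14462 genes tested. The MuvB subunit *LIN54*, which binds the CHR, fell from 34.1 ± 2.19 to 27.9 ± 0.205 CPM (n = 3 each, SD), which is a log2 fold change of -0.29 (SE 0.06). *LIN9*, another MuvB subunit, had 13.6, 12.8 and 14.7 CPM in the parental line against 12.7, 11.3 and 11.5 CPM in the knockout, a log2 fold change of -0.21 (SE 0.09), and did not pass. The MuvB subunits outside the set of regulators did not fall. *RBBP4* was higher (log2 fold change of 0.10, SE 0.03), and *LIN37* (0.05, SE 0.09) and *LIN52* (0.05, SE 0.09) were not called.

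The D cyclins of these cells were *CCND1* and *CCND3*, and both fell. *CCND1* had 275, 282 and 285 CPM in the parental line against 254, 249 and 243 CPM in the knockout, a log2 fold change of -0.17 (SE 0.03). *CCND3* had 50.6, 47.5 and 47.6 CPM in the parental line against 35.8, 39.3 and 36.7 CPM in the knockout, a log2 fold change of -0.38 (SE 0.04). Each had separate groups, and *CCND1* fell by 11.2% and *CCND3* fell by 23.2%. For each read of *CCND3* there were 5.78 ± 0.302 reads of *CCND1* in the parental line against 6.69 ± 0.388 in the knockout.

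Of the cyclins that act later, *CCNE2* and *CCNA2* fell and *CCNE1* was not called. Cyclin E starts S phase with CDK2 and cyclin A carries it through. *CCNA2* (number 890, chr4:121816444-121823883) had 43.2, 44.3 and 43.6 CPM in the parental line against 28.9, 28.8 and 27.8 CPM in the knockout, a log2 fold change of -0.61 (SE 0.05, FDR = 1.57e-13 in edgeR). When libraries were scaled by their totals alone, its value was -0.58, on the other side of 1.5-fold. *CCNE2* had 31.2, 27.8 and 30.4 CPM in the parental line against 20.3, 20.7 and 22.7 CPM in the knockout, a log2 fold change of -0.49 (SE 0.06, FDR = 4.73e-08 in edgeR). *CCNE1* had 24.1, 22.9 and 23.9 CPM in the parental line against 23.5, 21.3 and 19.9 CPM in the knockout, with overlap between the groups and a log2 fold change of -0.13 (SE 0.07, FDR = 0.115 in edgeR). *CCNE1* had 0.796 ± 0.0264 reads for each read of *CCNE2* in the parental line against 1.02 ± 0.141 in the knockout. *CCNE2* and *CCNA2* overlap neighbouring genes, and the use of strand in counting is not given in the sources used here.

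Of the kinases, *CDK2* and *CDK4* fell and *CDK6* was not called. *CDK2* had 61.4, 56.7 and 59.0 CPM in the parental line against 42.9, 42.8 and 47.7 CPM in the knockout, a log2 fold change of -0.41 (SE 0.04, FDR = 4.45e-10 in edgeR). *CDK4* had 254, 247 and 242 CPM in the parental line against 210, 229 and 219 CPM in the knockout, a log2 fold change of -0.17 (SE 0.03). The groups of both genes were separate. *CDK6* was rare, with 45, 39 and 42 reads in the 3 parental dishes against 30, 34 and 21 in the 3 knockout dishes. Its log2 fold change of -0.57 had an SE of 0.21, and it did not pass. *CDC25A*, the phosphatase that activates CDK2, fell from 32.8 ± 0.589 to 24.1 ± 2.47 CPM (n = 3 each, SD), which is a log2 fold change of -0.44 (SE 0.06).

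The inhibitors of the kinases did not move together. Of the 5 inhibitor genes among the regulators, 3 fell and 2 rose. Outside this set, *CDKN1A* (p21) was higher, with a log2 fold change of 0.11 (SE 0.03), and *CDKN2B* (p15) was not called (-0.05, SE 0.14). *CDKN1C*, the imprinted gene of p57, had 29, 28 and 40 reads in the 3 parental dishes against 92, 83 and 47 in the 3 knockout dishes. Every PACT KO library was above every LNCaP parental library, and PACT KO replicate 3 was nearest to them. After scaling these were 1.40 ± 0.190 CPM and 3.15 ± 0.735 CPM (n = 3 each, SD), which is a log2 fold change of 1.18 (SE 0.18, FDR = 1.42e-06 in edgeR), and with each library left out in turn the value was 1.05 to 1.35. *CDKN1C* (number 1028, chr11:2883218-2885775) was among the rarest regulators in both groups.

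*CDKN2A* (number 1029, chr9:21967752-21995324) encodes the CDK4 inhibitor p16 and, in another reading frame, the MDM2 inhibitor ARF, and counts per gene do not separate their transcripts. It had 21.6, 20.2 and 23.3 CPM in the parental line against 27.2, 28.1 and 26.3 CPM in the knockout, with no overlap and a log2 fold change of 0.32 (SE 0.06, FDR = 8.00e-05 in edgeR). Antisense genes overlap it, and without knowledge of the strand setting their reads cannot be told apart from those of *CDKN2A*. The other INK4 inhibitors fell, *CDKN2C* (p18) from 25.5 ± 1.14 to 19.4 ± 1.49 CPM and *CDKN2D* (p19) from 9.81 ± 0.485 to 7.33 ± 0.955 CPM (SD, n = 3 each). Their log2 fold changes were -0.39 (SE 0.07) and -0.41 (SE 0.10). There were 0.853 ± 0.0566 reads of *CDKN2A* for each read of *CDKN2C* in the parental line against 1.41 ± 0.0877 in the knockout.

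*CDKN1B*, the gene of p27, a protein that holds CDK2 inactive in resting cells, had 68.9, 67.2 and 71.8 CPM in the parental line against 60.4, 60.5 and 64.1 CPM in the knockout. Its log2 fold change was -0.17 (SE 0.04, FDR = 3.11e-04 in edgeR), and the groups were separate. Of the factors that mark the p27 protein for destruction, the mRNAs of *SKP2* and *CKS1B* fell too. Of their partners in this step, *CUL1* was lower (log2 fold change of -0.15). *SKP1* (0.04), *RBX1* (-0.07) and *CDC34* (-0.06) were not called. *SKP2*, the F-box protein that recognises p27, fell from 42.2 ± 0.884 to 35.7 ± 0.572 CPM, with a log2 fold change of -0.25 (SE 0.04), and its cofactor *CKS1B* from 20.7 ± 0.968 to 15.0 ± 0.334 CPM, with a log2 fold change of -0.47 (SE 0.07). For each read of *CDK2* there were 1.17 ± 0.0479 reads of *CDKN1B* in the parental line against 1.39 ± 0.0397 in the knockout, and for each read of *SKP2* 1.64 ± 0.0262 and 1.73 ± 0.0308. No protein was measured here. Neighbouring protein-coding genes also overlap *RB1*, *RBL2*, *CDK4* and *SKP2*. RefSeq names pseudogenes of *CKS1B*, *E2F3*, *E2F4*, *E2F6*, *TFDP1*, *CCND2*, *CCND3*, *CDK4* and *SKP2*, and 0 of them have a row of their own in the count table used here. How the authors treated reads shared between overlapping genes or with pseudogenes is not given in the sources used here.

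*MYC*, which drives growth and induces *CCND2*, *CDK4* and *E2F* genes in many cells, had 207, 202 and 203 CPM in the parental line against 170, 159 and 165 CPM in the knockout. Its log2 fold change was -0.31 (SE 0.03, FDR = 3.93e-11 in edgeR), and the groups were separate.

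**Figure D3:**
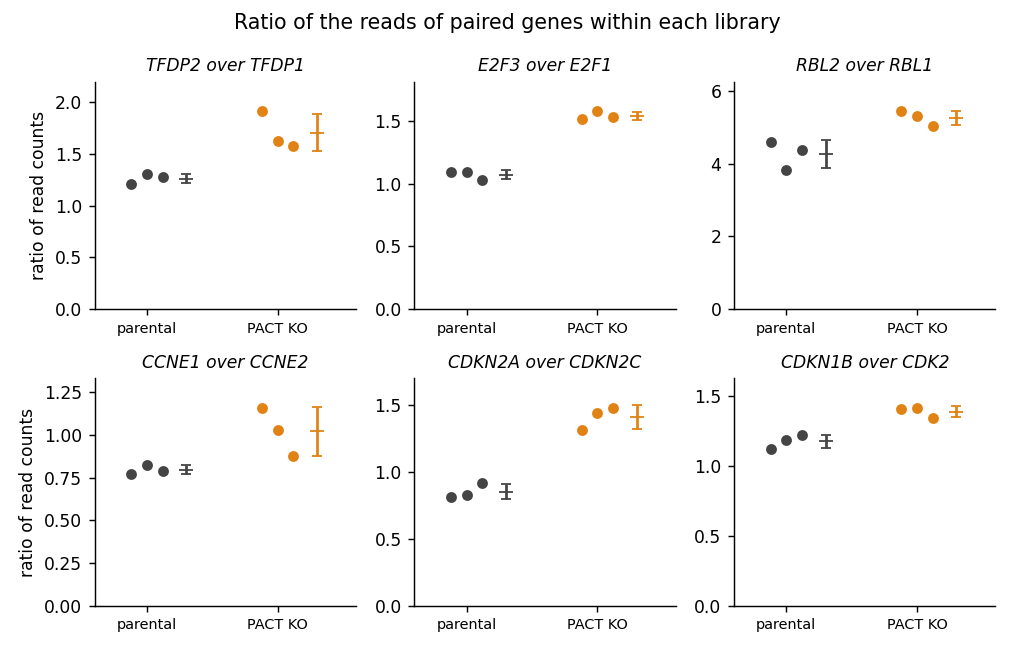
Number of reads of one gene for each read of another within a library (y axes from 0) for 6 pairs of G1/S regulators, in 3 LNCaP parental (grey) and 3 PACT KO (orange) libraries, with the mean and SD beside the points. In all 6 pairs the PACT KO libraries lie above the LNCaP parental libraries, as for *E2F3* over *E2F1*, at 1.07 on average in the parental line against 1.54 in the knockout.

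Ratios were computed for 10 pairs, and in each of them all 3 PACT KO libraries were above all 3 LNCaP parental libraries. The pairs were chosen after the values of their genes were seen, so the ratios are descriptions and no test of them is given. An exact permutation test of 3 libraries against 3 could not give a p below 0.10 in any case.

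The genes were also placed in classes by textbook role, as activators that drive G1/S or repressors that restrain it. Of the 16 tested activators, 13 passed as lower (81.25%) and 0 as higher in edgeR, with a median log2 fold change of -0.43. With DESeq2 0 were higher as well. All 16 had a fitted value below 0 in edgeR, from -0.82 to -0.04, so a looser p could call none of them higher. Of the 13 repressors, 7 were lower (53.8%) and 2 higher (15.4%), with a median of -0.17 and values from -0.70 to 1.18. Among all genes tested, 18.8% were lower and 15.3% higher. The share of repressors that rose was thus close to that of all genes. The 4 genes that serve complexes of both kinds, the dimer partners and the MuvB subunits, held 2 lower and 1 higher. No test was made of the difference between the classes, since the genes were chosen with results known. Of the 7 repressors that fell, *E2F7*, *E2F8* and *RBL1* are known E2F targets, and they are not the only ones among the regulators. Whether this bears on the fall of either class was not tested.

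Levels were compared between genes as CPM per kilobase of exon, with exons joined over all transcripts of a gene in GENCODE 29. In LNCaP parental cells *CDK4* was highest at 78.1 ± 1.92 CPM per kilobase, followed by *MYC* at 68.0 ± 0.795 and *CCND1* at 58.1 ± 1.06 (SD, n = 3). *MYBL2* came next at 31.5 ± 0.638 CPM per kilobase and fell to 17.9 ± 0.956 in PACT KO cells, below *CDKN1B* at 21.9 ± 0.735, which it had exceeded in LNCaP parental cells (24.7 ± 0.825). Among the E2F factors the order in LNCaP parental cells was *E2F1* at 22.8 ± 0.417 CPM per kilobase, *E2F4* at 17.8 ± 0.335 and *E2F3* at 11.8 ± 0.293, with all others at 3.05 or less. In PACT KO cells *E2F1* had 15.4 ± 0.179 and *E2F4* 15.8 ± 0.789 CPM per kilobase. The mean of *E2F1* lay within the SD of *E2F4*, but that of *E2F4* lay outside the SD of *E2F1*. *CDK6* at 0.149 ± 0.0118 and *CDKN1C* at 0.563 ± 0.0767 CPM per kilobase were the lowest of the tested genes in LNCaP parental cells. These levels rest on an annotation that may differ from the one used for counting, and genes with long, rarely used exons are placed too low.

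**Figure D4:**
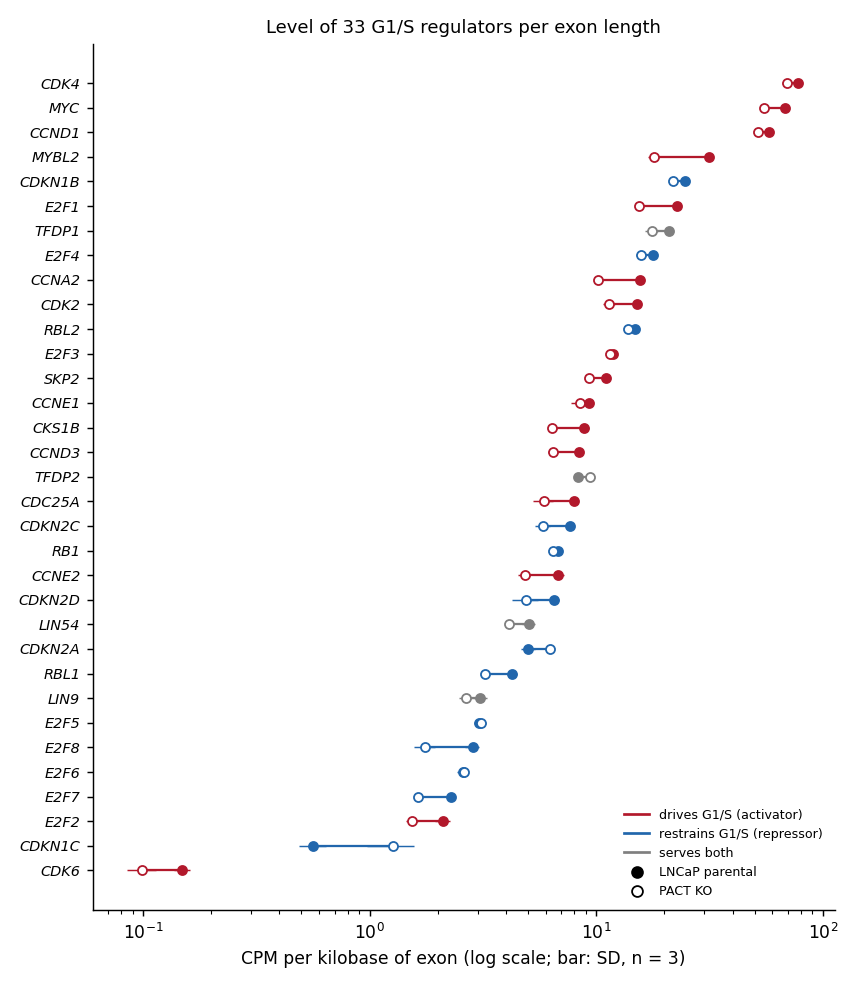
Level of the 33 tested G1/S regulators per exon length (x axis, CPM per kilobase of exon, log scale), with LNCaP parental as filled and PACT KO as open points (mean, bars give the SD, n = 3) and lines coloured by class. Genes are ordered by their level in LNCaP parental cells, from *CDK4* at 78.1 down to *CDK6* at 0.149.

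Other genes of the G1/S switch and of CDK control were more often lower than higher. Of 44 further regulators, chosen with earlier results of these data known, 42 were tested, and 15 were lower (35.7%) and 3 higher (7.14%). The shares over all genes tested were 18.8% and 15.3%. The median log2 fold change of the list was -0.05. The 5 with the smallest p were *PA2G4*, *CKS2*, *CDC25B*, *PKMYT1* and *DTL*, all lower. *PKMYT1*, a kinase that inhibits CDK1, fell from 19.8 ± 0.471 to 11.4 ± 0.607 CPM (n = 3 each, SD), which is a log2 fold change of -0.80 (SE 0.08), and *DTL*, which directs the destruction of CDT1 during S phase, from 30.1 ± 0.724 to 19.7 ± 1.23 CPM, with a log2 fold change of -0.61 (SE 0.06). The 3 that rose, named after their values were seen, were *MXD4*, an antagonist of MYC, at a log2 fold change of 0.11 (SE 0.03), *RBBP4*, a subunit of MuvB and of other chromatin complexes, at 0.10 (SE 0.03), and *CDKN1A*, the gene of p21, at 0.11 (SE 0.03). Without LNCaP parental replicate 2, 1 rather than 3 of this list was higher.

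Target genes of the regulators were lower almost without exception, where 18.8% of all genes tested were lower and 15.3% higher. Of 46 E2F target genes of DNA replication, all were tested and 44 were lower and 0 higher, with a median log2 fold change of -0.43. *RRM2*, a subunit of ribonucleotide reductase, had a log2 fold change of -0.78 (SE 0.04), *PCNA*, the sliding clamp, of -0.49 (SE 0.03) and *MCM4*, of the replicative helicase, of -0.57 (SE 0.03). All 38 listed genes of G2 and M phase that DREAM represses were lower, with a median of -0.55. *PLK1*, a mitotic kinase, fell from 64.2 ± 3.41 to 36.7 ± 1.12 CPM, with a log2 fold change of -0.81 (SE 0.04), and *CDC20*, which activates the anaphase-promoting complex, from 100 ± 3.21 to 65.3 ± 3.28 CPM, with a log2 fold change of -0.62 (SE 0.04). Of 26 MYC target genes of growth, 25 were tested and 22 were lower and 0 higher, with a median of -0.23. The gene not tested was *EIF4A1*, a translation initiation factor with a listed count of 0. *NOLC1*, a nucleolar protein, had a log2 fold change of -0.39 (SE 0.03) and *NCL*, the gene of nucleolin, of -0.28 (SE 0.03). In edgeR every tested gene of these 3 lists had a fitted value below 0, so a looser p could call none of them higher. With DESeq2, 0 genes of these 3 lists were higher as well.

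**Figure D5:**
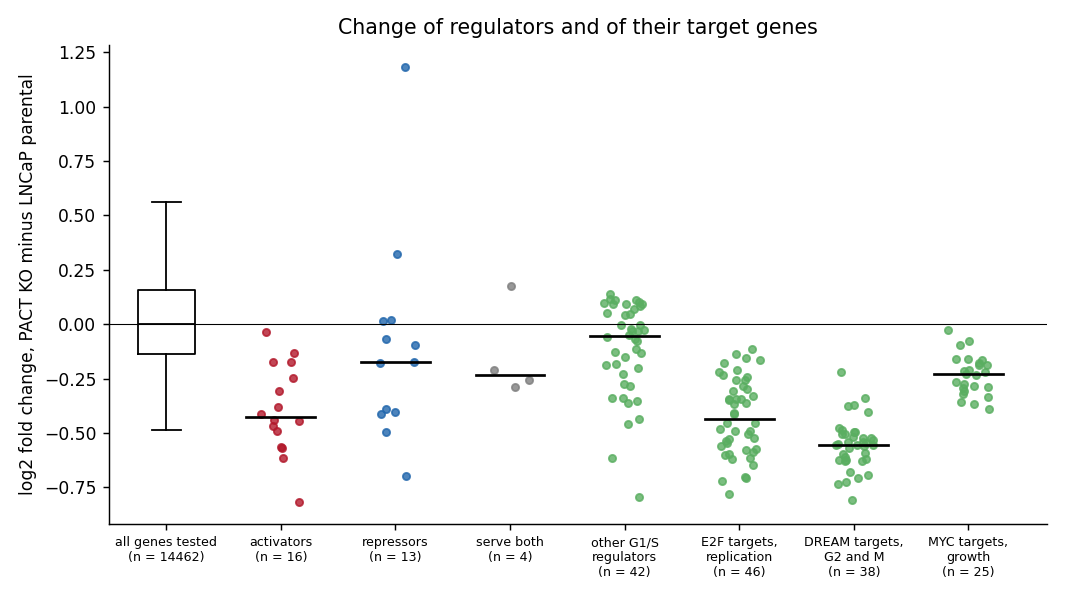
Log2 fold change (y axis, PACT KO minus LNCaP parental) of the tested activators, repressors and genes that serve both, and of 4 further lists of genes. Each point is a gene, black lines are medians, and the box gives the quartiles of all 14462 genes tested with whiskers at the 5th and 95th percentile. The medians are -0.43 for activators, -0.17 for repressors, -0.43 for E2F targets of replication and -0.55 for DREAM targets.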

How the data were processed

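PolyA RNA of 3 LNCaP parental and 3 PACT KO dishes was sequenced (Illumina NovaSeq). The authors deposited whole-number counts of reads per NCBI Gene number, not normalized. The submitters' processing notes list STAR 2.5.3a, StringTie 1.3.3, featureCounts 1.5.3 and hg38. The annotation, strand setting and treatment of shared reads are not given in the sources used here. A row without a gene number (0.0688% to 0.0708% of reads) was left out. Symbols came from RefSeq (GRCh38.p14) for 92.4% of gene numbers.

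Genes were filtered by edgeR's filterByExpr, scaled by TMM and tested with glmQLFit and glmQLFTest in edgeR 4.0.16 (R 4.3.3), PACT KO against LNCaP parental, 2-sided, with Benjamini-Hochberg adjustment over all genes tested (FDR). Thresholds were an FDR under 0.01 and, where stated, 1.5-fold. The standard error is the absolute log2 fold change over the square root of F. The test was run on simulated data first. The dishes of a clone are the replicates, so p-values measure the spread between dishes. Variance between replicates of a group was 1.57 to 3.78 times sampling noise. Same-numbered dishes did not deviate together. All 34 regulators are named, and the examples from each further list are at most 5 genes with the smallest p. Some further regulators were also named after their values were seen, and *EIF4A1* was named because it was listed at 0. Members, classes and lists were chosen with earlier results of these data known. Alternatives were DESeq2 1.42.0, limma-voom, edgeR's likelihood ratio test, 3 scalings, 2 filters, a replicate block and each library left out. Results for a few marker genes are not reported here.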

Additional observations from a re-analysis of the deposited data

How the results depend on the processing

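The counts of regulators called lower (22) and higher (3) were the same under DESeq2, limma-voom, the likelihood ratio test, other scalings and filters, and with the replicate block, and were 22 to 23 and 3 with each library left out. The replicate number, which pairs nothing here (correlations of deviations of -0.0939, 0.00286 and -0.0862 for numbers 1, 2 and 3, and no library correlated best with its own number), moved no count of calls past 1.5 times. With it, 2631 genes of the whole table were lower and 2139 higher, against 2726 and 2214. All 297 fitted values of single regulators under the other settings kept their side of the threshold, and 196 of 198 with a library left out did, the exceptions being those of *RBL2*. The median log2 fold change of the activators was -0.40 with upper quartile scaling and with library totals in place of -0.43, and -0.44 to -0.39 with each library left out. With either of these scalings 5 genes of the list of further regulators were higher in place of 3, and with a library left out 1 to 3. Depth limits *CDK6*, *CDKN1C* and *CCND2*, which had at most 92 reads in a library. All PACT KO dishes share a clone, and no alternative here can address that.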
